A study of Homo sapiens with 6 samples.

Results

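The genes described here are 9 components of the RAS switch: the GTPases *HRAS*, *NRAS*, *RRAS*, *RRAS2* and *MRAS*, the exchange factors *SOS1* and *SOS2*, and the GTPase-activating proteins *NF1* and *RASA1*. They are given by symbol, with no cut on measured values, and all 9 were found among the 57992 gene identifiers counted. *HRAS* also had a second identifier in the merged table, without counts. RNA was sequenced from 6 libraries of HEK293T cells, a human embryonic kidney line that carries the SV40 large T antigen, which the study also calls HEK293. Of these, 3 came from cells expressing a control hairpin (sh-control) and 3 from cells labelled as expressing a hairpin against *RREB1* (sh-RREB1). *RREB1* encodes a zinc finger transcription factor that binds RAS-responsive elements in promoters. Per the methods, hairpins were delivered by lentivirus to HEK293T cells and stable lines were selected in neomycin, and the labels give DMEM with 10% FBS as the medium of both groups. The comparison asks whether RNA of RAS pathway genes differs when RREB1 is targeted. The labels do not say that the libraries of a group came from separate cultures, so p-values measure only the spread between these libraries, which may be technical.

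RAS GTPases are molecular switches at the inner face of the plasma membrane, active when bound to GTP and inactive when bound to GDP. Exchange factors (GEFs) such as SOS1 and SOS2 are brought to activated growth factor receptors, release GDP from RAS and let GTP bind. GTPase-activating proteins (GAPs) such as neurofibromin, the product of *NF1*, and RASA1 speed the hydrolysis of GTP and switch RAS off. The GTP-bound form engages RAF kinases and starts the MEK-ERK cascade. Germline variants in several of these genes cause RASopathies, a group of developmental syndromes with facial, cardiac and growth features.

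Promoter sequences are shown for *HRAS* and *SOS2*, the genes that passed an adjusted p of 0.05 in opposite directions, and for *NRAS*, the GTPase set against *HRAS* in a ratio. *MRAS* and *NF1*, whose libraries also did not overlap, are not shown. The study considers *RREB1* a regulator of promoters. They were taken from RefSeq (GRCh38.p14) and run from 250 bases before to 50 bases after the annotated start, 5′ to 3′ on the strand of the gene. The table held an entry for 8 of the 9 genes, *RRAS* being the one without. Capitals mark GC boxes, GGGCGG or its reverse complement CCGCCC, the letters read by SP family factors. The *HRAS* promoter lies at chr11:535527-535826 (minus strand), the *NRAS* promoter at chr1:114716722-114717021 (minus strand) and the *SOS2* promoter at chr14:50231529-50231828 (minus strand). The *HRAS* window lies inside the locus of the gene given below, whose 5′ end is at 537321. Sequence around that more upstream end is not shown.
HRAS: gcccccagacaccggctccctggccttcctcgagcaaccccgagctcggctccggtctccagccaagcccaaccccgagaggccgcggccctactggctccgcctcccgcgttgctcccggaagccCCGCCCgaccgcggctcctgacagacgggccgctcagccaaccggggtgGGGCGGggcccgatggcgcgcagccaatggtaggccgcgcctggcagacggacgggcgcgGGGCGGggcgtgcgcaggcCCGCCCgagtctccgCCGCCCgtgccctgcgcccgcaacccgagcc
NRAS: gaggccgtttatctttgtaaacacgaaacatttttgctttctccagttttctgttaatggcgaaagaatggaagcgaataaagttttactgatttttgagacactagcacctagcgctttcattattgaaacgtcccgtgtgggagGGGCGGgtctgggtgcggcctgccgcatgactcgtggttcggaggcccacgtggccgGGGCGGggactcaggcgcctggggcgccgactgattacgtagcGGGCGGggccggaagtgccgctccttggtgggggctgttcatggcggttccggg
SOS2: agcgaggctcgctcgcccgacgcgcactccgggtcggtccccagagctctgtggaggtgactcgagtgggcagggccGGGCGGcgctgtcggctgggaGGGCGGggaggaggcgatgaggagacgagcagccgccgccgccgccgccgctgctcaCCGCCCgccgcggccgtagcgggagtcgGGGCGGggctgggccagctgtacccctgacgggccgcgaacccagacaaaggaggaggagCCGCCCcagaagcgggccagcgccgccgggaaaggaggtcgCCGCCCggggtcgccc
The *HRAS* window was 78% G or C, with 5 GC boxes and 40 CG pairs. The *NRAS* window was 57.3% G or C, with 3 GC boxes and 25 CG pairs. The *SOS2* window was 77.3% G or C, with 6 GC boxes and 42 CG pairs. Over all 35116 RefSeq promoters of the same length, the median was 58.7%, 45.0% held at least 1 GC box and 5.14% held 5 or more. In base composition the *HRAS* and *SOS2* windows were alike, and a relation to the direction of their RNA was not tested. The letters ACCACCC, which lie in the known RREB1 binding motif, and TATAAA, the core of a TATA box, were searched on both strands and cannot overlap a GC box in full. Neither was in any of the 3 windows, while 4.77% and 11.5% of all promoters held them. Only these exact letters were searched. These matches describe letters in these windows and say nothing of binding. The study itself reports tagged RREB1 at the *HRAS* promoter by ChIP-seq, near a RAS-response element, and by ChIP-PCR. It also reports higher activity of an *HRAS* promoter reporter in cells with *RREB1* knocked down.

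The libraries differed in depth. Totals of reads assigned to genes were 23362197 to 33044061 with sh-control and 12257054 to 26145877 with sh-RREB1. In sh-RREB1 replicate 3, 52.1% of aligned reads mapped to several positions and so did not count toward any gene, where elsewhere the share was 3.66% to 7.63%. HEK293 markers were present, with *VIM* (vimentin) from 329 to 615 CPM and *KRT8*, *KRT18*, *NEFM* and *INA* above 10 CPM in every library, while *PAX2*, a kidney progenitor factor, reached no more than 0.475 CPM. Of these 6 markers, *VIM*, *NEFM* and *PAX2* were higher in each library labelled sh-RREB1 than in each sh-control library, and the summed level of the 6 was 423 to 485 CPM with sh-control, against 686 to 805 CPM with sh-RREB1. Of 8 markers of other cell types, *CD3E* had no reads, and *PTPRC* and *CDH5* had at most 5 in a library. In that list *COL1A1* and *EPCAM* were higher and *PECAM1* and *ALB* lower in each library labelled sh-RREB1, with summed levels of 2.90 to 3.11 CPM and 3.01 to 5.80 CPM. Of all genes tested, 21% were higher in each library labelled sh-RREB1 than in each sh-control library, and 19.9% were lower. The part of the markers in the results was not tested. CPM stands for a gene's reads per 1000000 counted in the library after edgeR's TMM scaling.

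*RREB1*, the target of the hairpin, had 27.1, 25.1 and 26.5 CPM with sh-control, against 23.7, 24.6 and 23.1 CPM where sh-RREB1 was labelled. The difference was −0.14 on the log2 scale (edgeR adjusted p = 0.489), and each library labelled sh-RREB1 was below each sh-control library. The 95% confidence interval of −0.43 to 0.15 includes 0, so these counts show no clear reduction of the targeted gene. The libraries are therefore called by their labels, and each direction below rests on those labels.

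The 9 genes were read at very different levels. Levels are compared between genes as CPM per kilobase of the canonical transcript. The order depends on that choice of length. The canonical transcript has 1070 bases for *HRAS* and 12373 for *NF1*, while all annotated exons span 2431 and 41150 bases. The order was not computed with those exon lengths, nor with the trend on GC content and length described further on removed. *NRAS*, a farnesylated and palmitoylated RAS first found in neuroblastoma, was the most abundant, at 74.2 ± 5.14 CPM per kilobase (SD, n = 3) in sh-control. *NF1* (21.7 ± 6.22) and *RRAS2* (18.2 ± 1.82), which encodes the RAS relative TC21, came next, and their sh-control libraries overlapped. *SOS2* followed at 13.8 ± 1.32 CPM per kilobase and lay above *RASA1* in every sh-control library. *RASA1* (10.5 ± 1.87), *SOS1* (9.31 ± 2.48), *HRAS* (7.18 ± 4.27) and *MRAS* (6.57 ± 0.698) came next, and each overlapped the one after it in this group, while *MRAS* lay above *RRAS* in every sh-control library. *RRAS*, encoding R-Ras, a GTPase best known for its part in integrin adhesion, was the lowest at 0.858 ± 0.403 CPM per kilobase. In the libraries labelled sh-RREB1 *HRAS* stood at 22.0 ± 4.52 CPM per kilobase, second to *NRAS* at 59.8 ± 11.4. By the canonical length and as counted, *HRAS* thus moved from place 7 to place 2 in the order of means. Its libraries still overlapped those of *RRAS2* (17.6 ± 3.63). *NF1* (15.7 ± 1.27) then came after *RRAS2*, and *SOS2* (9.73 ± 1.47) after *RASA1* (10.1 ± 1.95).

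**Figure D1:**
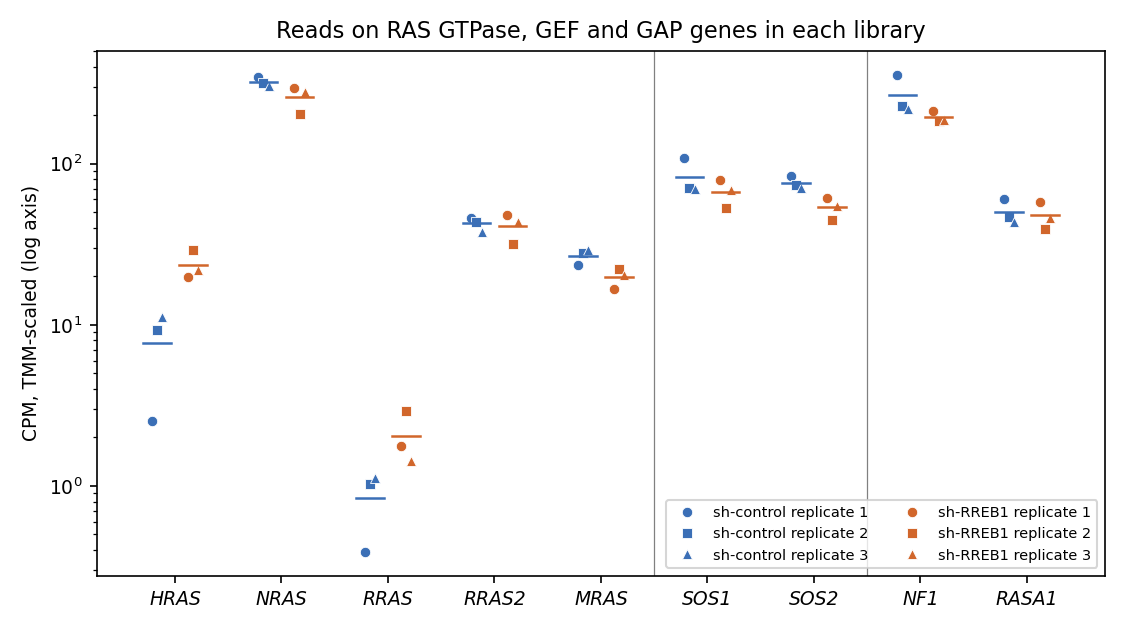
Reads on each of the 9 genes in each library as TMM-scaled CPM on a log axis, with 3 sh-control libraries in blue, 3 sh-RREB1 libraries in orange, marker shapes for replicate numbers and a horizontal bar for each mean. GTPases are on the left, exchange factors in the middle and GTPase-activating proteins on the right. *HRAS* in sh-control replicate 1, at 2.52 CPM, stands well below the other sh-control libraries.

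*HRAS* encodes the founding RAS protein, which is farnesylated and palmitoylated and is altered in Costello syndrome. Its locus is chromosome 11, 532242 to 537321 (GRCh38, as for all genes here), and its canonical transcript has 6 exons. Sh-control replicates 1 to 3 held 58, 254 and 360 *HRAS* reads, and sh-RREB1 replicates 1 to 3 held 491, 759 and 277. In CPM these were 2.52, 9.33 and 11.2 with sh-control, against 19.7, 29.0 and 21.9 with sh-RREB1. Every library labelled sh-RREB1 was above every sh-control library, and sh-control replicate 1 was lower than the other sh-control libraries. *HRAS* rose 3.05-fold (95% confidence interval 1.52 to 6.09), or by 1.61 on the log2 scale (standard error 0.44, edgeR adjusted p = 0.0349). It passed an adjusted p of 0.05 but not the 0.01 that, with an absolute log2 fold change above 1, was needed for a gene to be called. DESeq2, the tool of the study, gave an adjusted p of 0.00127 and called it. When sh-control replicate 1 was left out, the difference was 1.16 and edgeR called it (adjusted p = 0.00259), and in 4 of the other 5 fits that left out a library the edgeR adjusted p was between 0.0621 and 0.107. Once a trend on GC content and length was taken out, as described further on, the difference was 0.27. In RNA from bulk cultures, fewer cells with a transcript and less of it per cell cannot be told apart, which holds for every gene here.

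*NRAS* (chromosome 1, 114704469 to 114716771) had 345, 316 and 302 CPM with sh-control, against 295, 203 and 278 CPM with sh-RREB1. The groups did not overlap, with sh-RREB1 replicate 2 the lowest library. The mean of 321 ± 22.3 CPM (SD, n = 3) with sh-control stood against 259 ± 49.1 CPM with sh-RREB1, and the log2 fold change of −0.31 (95% confidence interval −0.64 to 0.02, edgeR adjusted p = 0.173) did not pass.

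Within a library, the ratio of *HRAS* to *NRAS* reads does not depend on the scaling between libraries. For each *HRAS* read there were 137, 33.8 and 26.9 *NRAS* reads in sh-control replicates 1 to 3, and 14.9, 6.99 and 12.7 in sh-RREB1. The log2 ratio was −5.64 ± 1.27 (SD, n = 3) in sh-control and −3.46 ± 0.58 in sh-RREB1, a difference of 2.19 or 4.55-fold (exact permutation test, two-sided, p = 0.1, the smallest that 3 libraries against 3 allow). As shares of the summed CPM per kilobase of the 5 GTPases, *HRAS* made up 2.18%, 8.06% and 10.0% in sh-control and 16.3%, 28.3% and 18.7% in sh-RREB1. *NRAS* made up 73.9%, 67.4% and 66.7% in sh-control and 60.3%, 48.9% and 58.6% in sh-RREB1. The sum itself was 105 to 108 CPM per kilobase in sh-control and 95.9 to 113 in sh-RREB1. The ranges overlapped while the makeup as counted differed. With the trend on GC content and length described further on removed, the log2 *HRAS* to *NRAS* ratio differed by 0.42. The shares rest on the canonical transcript, 1070 bases for *HRAS*, where all its annotated exons span 2431 bases. For *NRAS* both lengths are 4326 bases. The shares were not computed with the length of all annotated exons or with the trend removed.

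*RRAS* (chromosome 19, 49635292 to 49640143) was counted with few reads, 9, 28 and 36 in sh-control and 44, 77 and 18 in sh-RREB1. These were 0.390, 1.03 and 1.12 CPM against 1.77, 2.94 and 1.42 CPM, and the groups did not overlap. The log2 fold change was 1.27 (95% confidence interval 0.36 to 2.18, edgeR adjusted p = 0.0564). *RRAS* thus resembled *HRAS* in having its lowest value in sh-control replicate 1, and it did not pass an adjusted p of 0.05.

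*RRAS2* (chromosome 11, 14277922 to 14364506), the closest relative of *RRAS*, had 46.2, 43.7 and 37.9 CPM with sh-control, against 48.4, 31.8 and 43.4 CPM with sh-RREB1. The groups overlapped, with sh-RREB1 libraries holding both the highest and the lowest value. The log2 fold change of −0.05 had a 95% confidence interval from −0.44 to 0.34 (edgeR adjusted p = 0.875), and it was above 0 in 11 of 23 alternative fits.

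*MRAS* (chromosome 3, 138347648 to 138405534) encodes the GTPase that joins SHOC2 and a PP1 phosphatase to release RAF from inhibition. It had 23.7, 28.1 and 29.1 CPM with sh-control, against 16.8, 22.1 and 20.4 CPM with sh-RREB1, without overlap. Replicate 1 was the lowest library of both groups. It differed by −0.45 on the log2 scale (95% confidence interval −0.81 to −0.08, edgeR adjusted p = 0.0845), with a DESeq2 adjusted p of 0.0393.

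Among the exchange factors, *SOS2* fell and *SOS1* did not pass the test. *SOS2* (chromosome 14, 50117130 to 50231578), a broadly expressed exchange factor altered in some cases of Noonan syndrome, had 84.5, 73.5 and 70.7 CPM with sh-control, against 61.1, 45.0 and 54.8 CPM with sh-RREB1. All sh-RREB1 libraries were below all sh-control libraries. *SOS2* fell by 29.7%, or by 0.51 on the log2 scale (standard error 0.14, edgeR adjusted p = 0.0382). With a library left out in turn it ran from −0.61 to −0.39, and in 5 of those 6 fits the edgeR adjusted p was between 0.0606 and 0.117.

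*SOS1* (chromosome 2, 38962206 to 39124345), the exchange factor most often altered in Noonan syndrome, had 108, 70.3 and 70.0 CPM with sh-control, against 79.8, 53.1 and 68.8 CPM with sh-RREB1. The groups overlapped, and replicate 1 was the highest library of each. The log2 fold change was −0.30 with a 95% confidence interval from −0.77 to 0.17 (edgeR adjusted p = 0.349), an interval that includes the value of *SOS2*. A transcript on the same strand, *SOS1-IT1*, shares 1254 exonic bases with *SOS1*, so reads there cannot be assigned to one of them.

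The GTPase-activating proteins did not pass the test. *NF1* (chromosome 17, 31094927 to 31382116, 58 exons), the gene of neurofibromatosis type 1, had 357, 229 and 220.0 CPM with sh-control, against 213, 184 and 188 CPM with sh-RREB1. The groups did not overlap, but sh-control replicate 1 stood far above the rest. The log2 fold change was −0.46 (95% confidence interval −0.88 to −0.05, edgeR adjusted p = 0.112), and without sh-control replicate 1 it was −0.24 (edgeR adjusted p = 0.190). *NF1* has pseudogene copies on other chromosomes, so its counts are uncertain to the extent that reads were shared.

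*RASA1* (chromosome 5, 87267883 to 87391931) encodes p120-RasGAP, altered in capillary malformation-arteriovenous malformation. It had 60.1, 46.9 and 43.2 CPM with sh-control, against 57.6, 39.3 and 46.3 CPM with sh-RREB1, and the groups overlapped. The log2 fold change was −0.07 (95% confidence interval −0.48 to 0.34, edgeR adjusted p = 0.832). Its exons share 771 bases with *CCNH* on the opposite strand. Reads on that strand numbered 1329, 902 and 1162 in sh-control and 2242, 1028 and 938 in sh-RREB1, and counting both strands together gave 0.30 on the log2 scale (edgeR adjusted p = 0.414).

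**Figure D2:**
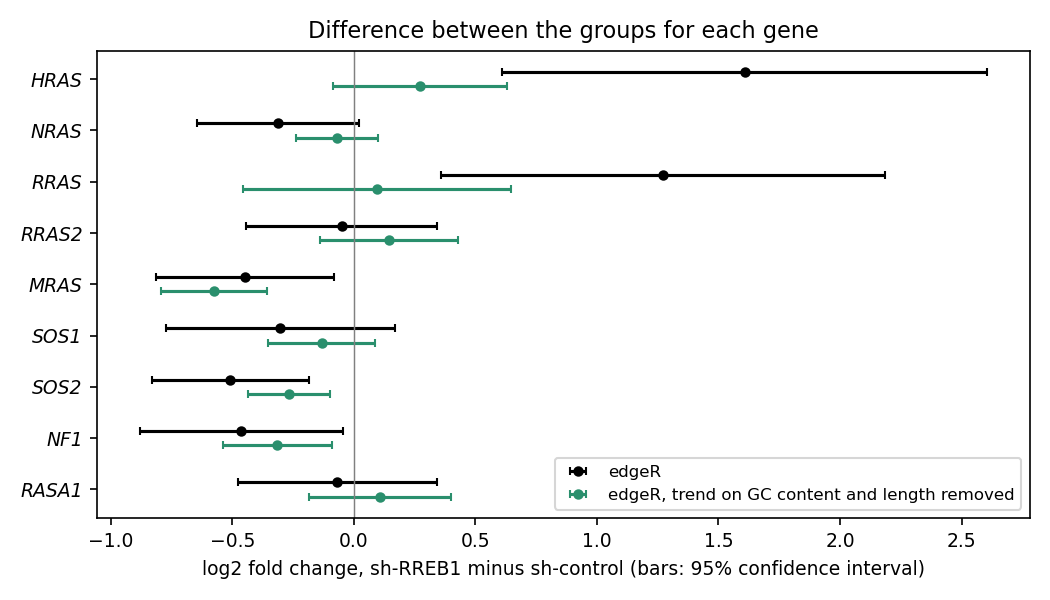
Log2 fold change of each of the 9 genes, sh-RREB1 minus sh-control, with 95% confidence intervals from edgeR (n = 3 libraries a group), in black as counted and in green with a trend on GC content and exonic length removed from each library. *HRAS* is at 1.61 in black and 0.27 in green, and *MRAS* at −0.45 and −0.58.

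The balance of exchange factors to GTPase-activating proteins was compared within each library as the summed reads per kilobase of *SOS1* and *SOS2* over those of *NF1* and *RASA1*. The log2 ratio was −0.59, −0.42 and −0.38 in sh-control and −0.55, −0.71 and −0.50 in sh-RREB1. The groups overlapped, and the means of −0.46 ± 0.12 and −0.59 ± 0.11 (SD, n = 3) differed by −0.12 (exact permutation test, two-sided, p = 0.3). *NF1* and *RASA1* together thus had more reads per length than *SOS1* and *SOS2* in every library, and a difference between the groups was not detectable. These 2 ratio comparisons, of *HRAS* to *NRAS* and of exchange factors to GTPase-activating proteins, had p = 0.2 and p = 0.3 after Benjamini-Hochberg adjustment (exact permutation test).

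**Figure D3:**
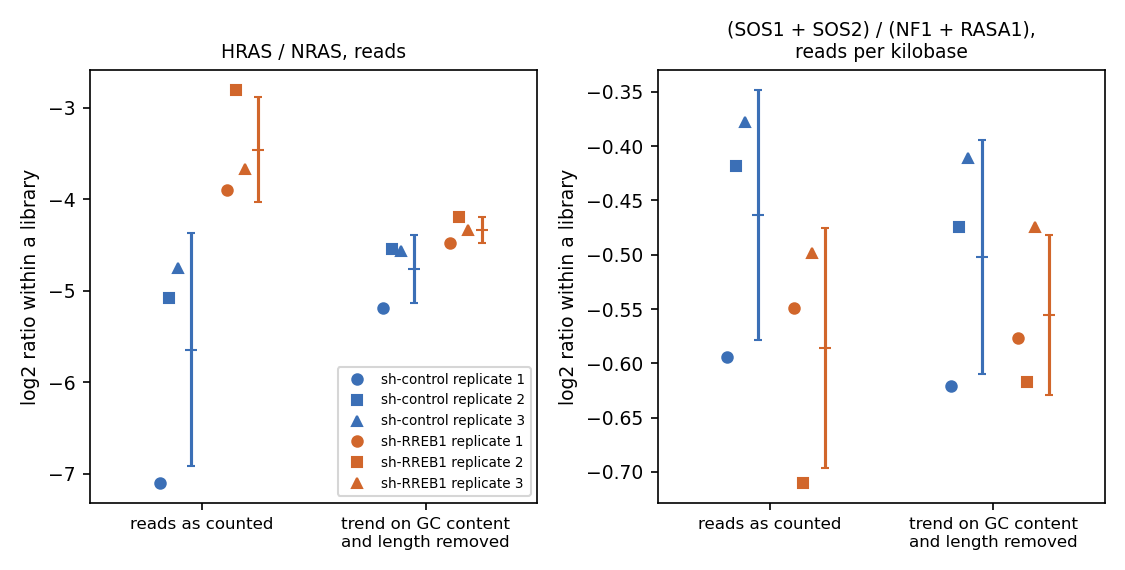
Log2 ratio within each library of *HRAS* to *NRAS* reads (left) and of *SOS1* plus *SOS2* to *NF1* plus *RASA1* reads per kilobase (right), as counted and with the trend on GC content and length removed. Points are libraries, with colours for groups and shapes for replicate numbers, and vertical bars are the mean ± SD (n = 3). The *HRAS* to *NRAS* difference is 2.19 as counted and 0.42 with the trend removed, and the groups overlap in the right panel.

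Taking the 9 genes as a list, 0 were called with edgeR, while 3.38% of the 23617 genes tested were called. DESeq2 called 1, *HRAS*, where it called 9.14% of the 18119 genes to which it gave an adjusted p. An unadjusted edgeR p below 0.05 was found for 5 of 9 and for 34.2% of all genes. At an adjusted p below 0.05, 1 of 9 was higher (*HRAS*) and 1 of 9 was lower (*SOS2*), compared to 10.7% and 8.7% of all genes. The libraries did not overlap and were higher in sh-RREB1 for 2 of 9, *HRAS* and *RRAS*, where 21% of all genes were so. They did not overlap and were lower for 4 of 9, *NRAS*, *MRAS*, *SOS2* and *NF1*, where 19.9% of all genes were so. The median of the list was −0.30 on the log2 scale, with 2 values above 0 and 7 below, against 0.01 over all genes tested. The share in the higher direction was near the background, and nothing particular to the list is read from either.

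The direction of the 9 genes went with the GC content of their exons. *HRAS* (65.6%) and *RRAS* (63.9%) had the highest GC content and were the ones above 0, while *NF1* (36.4%), *SOS1* (37.1%), *NRAS* (37.4%) and *SOS2* (39.1%) were the lowest in GC content. *RASA1* (43.6%) and *RRAS2* (43.7%) were near 0, and *MRAS* (51.0%) was lower than genes of like composition. Expressed genes were divided into 10 bins of equal number by GC content, and the bin that holds *HRAS* and *RRAS* had a median log2 fold change of 1.11 (quartiles 0.72 and 1.52). *HRAS* was above 79.8% and *RRAS* above 61.2% of the genes of that bin. *MRAS* was above 8.93% of the genes of its own bin, whose median was 0.10. The bin of lowest GC content, with *NF1*, *SOS1* and *NRAS*, had a median of −0.23.

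The sh-control libraries differed among themselves along the same axis. In sh-control replicate 1, relative to the average of sh-control replicates 2 and 3, *HRAS* differed by −2.01 and *RRAS* by −1.41 in log2 CPM, and the genes of their bin by a median of −1.08. *NF1* differed by 0.67 and *SOS1* by 0.63, and the genes of their bin by 0.25. A smooth trend on GC content and exonic length was therefore removed from each library as an alternative. This correction would take away a real difference too, where it runs along GC content. It also moves GC-rich genes that were near 0 as counted, such as *RASSF1* of a list below, from −0.05 to −1.06.

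**Figure D4:**
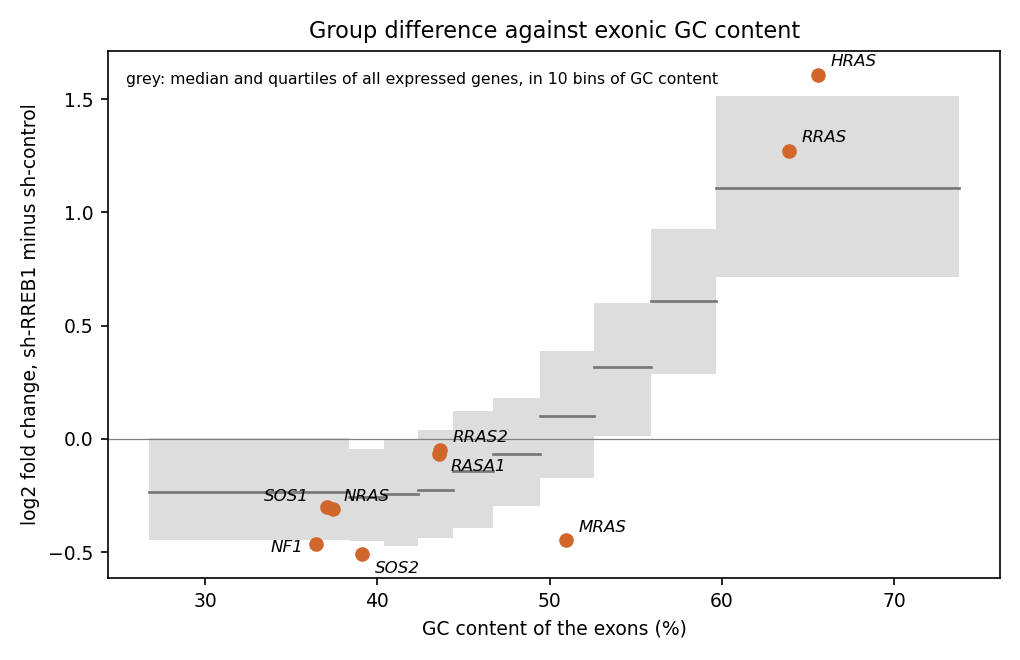
Log2 fold change, sh-RREB1 minus sh-control, against exonic GC content (%). Orange points are the 9 genes, and grey bars and boxes give the median and quartiles of all expressed genes in 10 bins of GC content. *HRAS* and *RRAS* lie in the bin whose median is 1.11, and *MRAS* lies at −0.45 under a bin whose median is 0.10.

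With that trend removed, the log2 fold change of *HRAS* was 0.27 (standard error 0.16, edgeR adjusted p = 0.270), of *RRAS* 0.10 (adjusted p = 0.832) and of *NRAS* −0.07 (adjusted p = 0.580). *MRAS* fell by 0.58 on the log2 scale (standard error 0.10, edgeR adjusted p = 0.00203), *NF1* by 0.31 (adjusted p = 0.0476) and *SOS2* by 0.27 (adjusted p = 0.0287). *SOS1* was at −0.13, *RRAS2* at 0.14 and *RASA1* at 0.11, with edgeR adjusted p of 0.395, 0.474 and 0.616. So the genes past an adjusted p of 0.05 were then *MRAS*, *SOS2* and *NF1*, all lower, and 3 of 9 compares to 11.6% of all genes. None of the 9 was called, where 3.03% of all genes were. All their fold changes stayed under the minimum, and only *MRAS* had an edgeR adjusted p below 0.01. *MRAS* kept an edgeR adjusted p between 0.00139 and 0.0129 when each library was left out with the trend removed, while *SOS2* ran from 0.0268 to 0.103 and *NF1* from 0.0316 to 0.224. The *HRAS* to *NRAS* log2 ratio then differed by 0.42 between the groups, which still did not overlap (exact permutation test, two-sided, p = 0.1). *RREB1* itself was at −0.36 with the trend removed (edgeR adjusted p = 0.0532).

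For each of the 9 genes, the gene most alike in log2 CPM over the 6 libraries was taken from 9389 genes with a mean of at least 10 CPM. *HRAS* was most like *TSR3* (Pearson's r 0.9998), whose GC content was 66.9% and log2 fold change 1.90. *RRAS* was most like *TYK2* (r 0.999), *MRAS* like *BTN2A1* (r 0.999), *NRAS* like *PIGN* (r 0.998) and *RRAS2* like *RNF2* (r 0.997). *SOS2* was most like *HAUS6* (r 0.999), *SOS1* like *VPS13A* (r 0.997), *NF1* like *ANKRD36* (r 0.997) and *RASA1* like *GAB1* (r 0.999). *GAB1* encodes an adaptor of receptor tyrosine kinases and belongs to a list described below. These values are descriptions over 6 libraries that share depth and base composition, and such likeness was common: 1671 genes had r above 0.9 with *HRAS* and 356 with *RASA1*.

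The rest of the RAS machinery was described with 7 lists of 67 genes, of which 63 had enough reads to be tested. Of these, 2 were called, 5 were higher and 6 lower at an edgeR adjusted p below 0.05. These counts were near the 3.38%, 10.7% and 8.7% of all genes given above. With the trend on GC content and length removed, 5 of the 63 were called, where 3.03% of all genes were.

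Among other RAS-subfamily GTPases, 16 of 17 genes were tested, 1 was higher and 1 lower at an adjusted p below 0.05, and the median log2 fold change was −0.04. *RHEBL1*, encoding a relative of the mTORC1 activator RHEB, had 2.69, 2.61 and 3.20 CPM with sh-control, against 0.844, 1.03 and 0.949 CPM with sh-RREB1. It was called lower, at −1.59 on the log2 scale (edgeR adjusted p = 0.00417), and at −1.88 with the trend removed. *RERG*, a growth-inhibitory GTPase, had 1.69, 1.25 and 1.21 CPM with sh-control, against 2.93, 2.48 and 2.53 CPM with sh-RREB1. It rose by 0.95 on the log2 scale (edgeR adjusted p = 0.0215), and with the trend removed it was called at 1.23.

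Among other exchange factors for RAS, 5 of 6 genes were tested, 2 were lower at an adjusted p below 0.05 and the median was −0.93. *RASGRP1*, a diacylglycerol-regulated exchange factor, had 5.03, 4.30 and 3.89 CPM with sh-control, against 2.25, 2.79 and 1.74 CPM with sh-RREB1. It fell by 0.93 on the log2 scale (edgeR adjusted p = 0.0228). *RASGRP3*, of the same family, fell by 1.45 (edgeR adjusted p = 0.0126), from 1.31 to 1.43 CPM in sh-control to 0.396 to 0.649 CPM in sh-RREB1. With the trend removed *RASGRP3* was called, at −1.28. *RASGRF2*, a calcium-regulated exchange factor, was at 0.12 (edgeR adjusted p = 0.723).

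Among other GTPase-activating proteins for RAS, 6 of 7 genes were tested, 1 was higher at an adjusted p below 0.05 and the median was −0.01. *DAB2IP*, a RAS GAP described as a tumour suppressor, had 3.77, 5.14 and 7.497 CPM with sh-control, against 13.9, 16.96 and 13.1 CPM with sh-RREB1. It was called higher at 1.41 on the log2 scale (edgeR adjusted p = 0.00859), and was at 0.44 with the trend removed (edgeR adjusted p = 0.0306). Its exonic GC content was 60.8%, well above that of *NF1* and *RASA1*.

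Of 10 adaptors between receptors and RAS, 1 was higher at an adjusted p below 0.05 and the median was 0.06. *SHC2*, of the SHC adaptor family, rose by 1.76 on the log2 scale (edgeR adjusted p = 0.0111) from 0.257 to 0.622 CPM in sh-control to 1.29 to 1.64 CPM in sh-RREB1. It was at 0.34 with the trend removed. *SHC1* and *FRS3*, which link receptors to GRB2, were at 0.82 and 0.69, with edgeR adjusted p of 0.0807 and 0.209.

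Of 11 genes for lipid modification, trafficking and turnover of RAS, 1 was higher and 3 were lower at an adjusted p below 0.05, and the median was 0.10. *PDE6D*, the chaperone that carries farnesylated RAS through the cytosol, fell from 37.5, 40.8 and 39.7 CPM to 24.2, 28.6 and 26.4 CPM (log2 fold change −0.57, edgeR adjusted p = 0.0181). *FNTA*, a subunit shared by both protein prenyl transferases that add farnesyl or geranylgeranyl groups, fell from 95.8, 96.2 and 84.9 CPM to 69.6, 60.1 and 67.5 CPM (log2 fold change −0.49, edgeR adjusted p = 0.0200). *SPRED2*, which brings neurofibromin to the membrane, fell by 1.07 (edgeR adjusted p = 0.0125) and was called with the trend removed, at −1.11. *LZTR1*, an adaptor for the ubiquitination and loss of RAS proteins, rose by 1.36 (edgeR adjusted p = 0.0224), from 10.1, 23.4 and 28.4 CPM to 47.0, 63.4 and 48.7 CPM. With the trend removed, *PDE6D* was at −0.44, *FNTA* at −0.29 and *LZTR1* at 0.65, each at an edgeR adjusted p below 0.05. So genes of this list that act on RAS in different ways moved in both directions.

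In the complex that *MRAS* forms, *SHOC2* and the 3 PP1 catalytic subunits had a median of 0.27, and none passed an adjusted p of 0.05. *SHOC2*, the scaffold, was at −0.30 and *PPP1CA* at 0.55, with edgeR adjusted p of 0.262 and 0.195. With the trend removed, *PPP1CA* was at −0.49 (edgeR adjusted p = 0.00367), the sign of its value being opposite. *PPP1CB*, another catalytic subunit, was then at 0.68 (edgeR adjusted p = 0.0349) after 0.46 as counted (edgeR adjusted p = 0.326). As counted, *PPP1CB* had 215, 156 and 147 CPM with sh-control, against 317, 125 and 272 CPM with sh-RREB1. The groups overlapped for *PPP1CA* and *PPP1CB*.

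Among RAS effectors, 11 of 12 genes were tested, 1 was higher at an adjusted p below 0.05 and the median was 0.12. *ARAF*, a RAF kinase, had 14.96, 21.7 and 22.6 CPM with sh-control, against 30.6, 38.0 and 32.1 CPM with sh-RREB1. It rose by 0.77 on the log2 scale (edgeR adjusted p = 0.0234) and was at 0.51 with the trend removed (edgeR adjusted p = 0.00256). *RALGDS*, the exchange factor for RAL downstream of RAS, was at 0.95 (edgeR adjusted p = 0.0529) and at 0.05 with the trend removed. *RASSF1*, a RAS-association domain protein, was at −0.05 as counted, and its groups overlapped. With the trend removed it was called lower, at −1.06 (edgeR adjusted p = 0.000639).

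**Figure D5:**
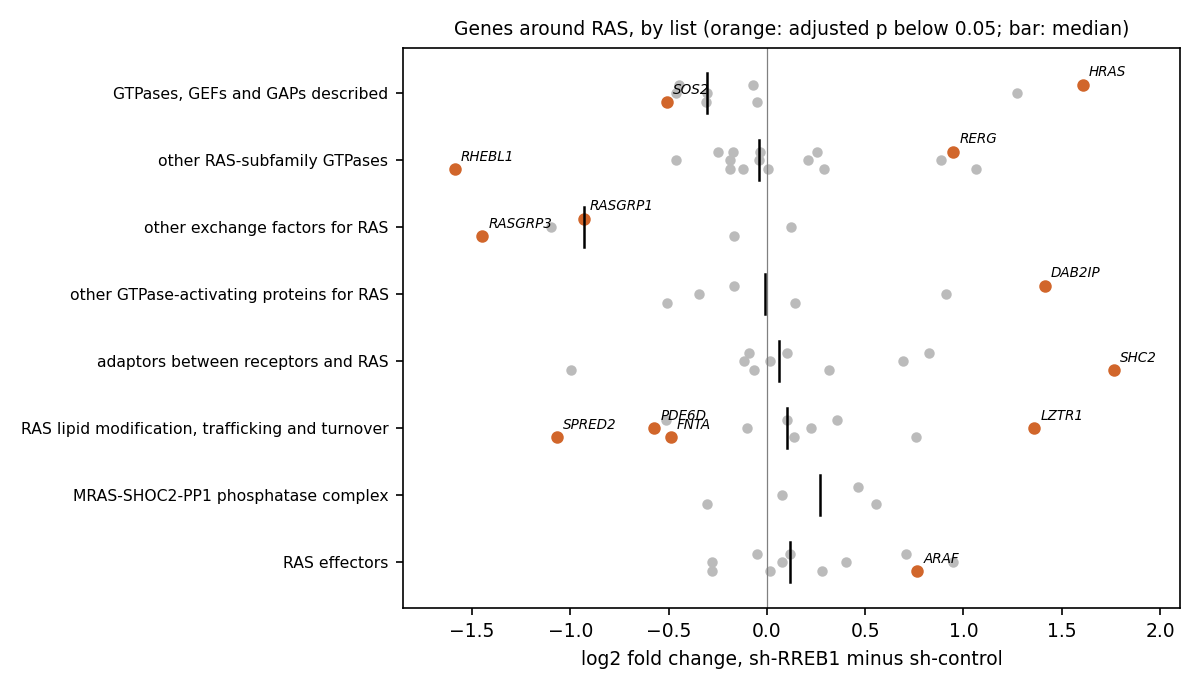
Log2 fold change, sh-RREB1 minus sh-control, of the 9 genes (top row) and of the 63 tested genes of 7 lists around RAS, 1 point a gene. Orange points have an edgeR adjusted p below 0.05 and a vertical bar marks the median of each row. *RASGRP1* and *RASGRP3* lie left of 0, and *DAB2IP* and *LZTR1* right of it.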

How the data were processed

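Expression was measured by strand-specific total RNA sequencing of 6 HEK293T libraries, 3 a group as labelled. The authors aligned reads to hg38 with STAR and an earlier Gencode annotation than the one used here and deposited raw read counts per gene, unnormalized, for each library, and a merged table of these counts. Sense-strand counts were used. Reads on no gene (19.2% to 33.1% of aligned reads) were left out. For each symbol the identifier with most reads was kept, and 23617 genes with at least 10 reads in total entered a quasi-likelihood test in edgeR 4.0.16 and R 4.3.3, with TMM scaling, condition as covariate and Benjamini-Hochberg adjustment over all genes. A call needed both an adjusted p under 0.01 and a log2 difference of more than 1 in size. DESeq2 1.42.0, other filters and scalings, both strands, the merged table, the replicate number as a block, every identifier kept and each library left out were alternatives. Removing the trend per library (natural splines, 5 degrees of freedom) on GC content and exonic length was another. Coordinates, GC content and lengths came from Gencode version 44 (GRCh38), and 98.7% of tested genes had a GC value. Ratios were compared by exact permutation over libraries. The tests were tried on simulated data.

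The members and lists were chosen with earlier results of these data known. Genes named from a list were those called, otherwise the 2 with the smallest p and a mean of at least 1 CPM. *RERG*, *RASGRP3*, *SHC2*, *FNTA*, *LZTR1*, *PPP1CB* and *RASSF1* were named after their values were seen. An item of one list is not reported here and is in none of the list counts. Replicates agreed less closely than sampling noise (chi-square per degree of freedom 5.13 to 68.6), and each library was counted. This spread may be technical and does not show that the libraries came from separate cultures. Depth and 3 libraries a group limit the precision, and intervals are at 95%.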

Additional observations from a re-analysis of the deposited data

Results flagged for a closer look

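Reads on the strand opposite to *RRAS*, which the comparisons do not use, numbered 1, 0 and 3 in sh-control and 4, 8 and 2 in sh-RREB1, and were picked out as a signal above the control libraries in data outside the main measurement. The mean was 0.213 per 1000000 reads on genes in sh-RREB1. These are few reads, on a gene with 9 to 77 reads on its own strand, and the difference was not tested.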

How the results depend on the processing

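Of the 23 alternative fits, all gave *NRAS*, *MRAS*, *SOS1*, *SOS2*, *NF1* and *RREB1* a negative and *HRAS* a positive log2 fold change. The median of all genes moved by less than 0.1 in each. *HRAS* (1.61) became a called gene with DESeq2 (1.60), with a minimum of 1 read (1.61) and with the replicate block (1.79), and its edgeR adjusted p ran from 0.0009 to 0.517. Leaving out a library, with and without the trend on GC content and length removed, gave 0.11 to 1.95 for *HRAS*, −0.14 to 1.49 for *RRAS*, −0.23 to 0.23 for *RASA1*, −0.18 to 0.30 for *RRAS2* and 8 to 1120 called genes. The count was 8 with sh-RREB1 replicate 3 left out, 9 with sh-control replicate 2 left out and 25 with sh-RREB1 replicate 1 left out. *RASA1* changed sign with library totals only (0.0152), both strands (0.30), the trend removed (0.11) and that with the replicate block (0.10). *RRAS2* changed sign with library totals only (0.0356), a filter by group size (0.0149), the trend removed (0.14) and that with the replicate block (0.13). The *HRAS* to *NRAS* difference was 0.42 with the trend removed, and that of exchange factors to GTPase-activating proteins −0.33 with both strands and −0.25 with the length of all annotated exons, chosen after seeing the data, as were the fits leaving out a library with the trend removed. Called genes numbered 798 (79.6% higher), 716 (60.3% higher) with the trend removed, 891 (58.8% higher) with that and the replicate block, 1656 with DESeq2, 1829 with a minimum of 1 read, 1707 with the replicate block and 4575 at an adjusted p below 0.05 with no minimum fold change. Same-numbered libraries correlated at 0.50, 0.43 and −0.27 in deviations from their group means. These values do not settle whether the numbers pair the libraries. The causes of these changes were not tested.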
